A study of Mus musculus with 15 samples.

Results

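Msx3, Ddx4, Ankrd55 and Aqp9 are 4 of the 24054 genes counted in whole mouse lung. They were chosen by symbol because an antibody against IL-4Ra lowered them in ovalbumin-challenged lungs although none is a classical marker of type 2 inflammation. The 15 libraries came from female Balb mice of wild-type genotype, 5 in each of 3 groups. Mice of the saline group were sham-sensitised and received an isotype control antibody. Mice of the OVA group were sensitised to ovalbumin by intraperitoneal injection, breathed nebulised ovalbumin as challenge and received the isotype control antibody. Mice of the anti-IL-4Ra group had the same sensitisation and challenge and received 30 mg/kg of a monoclonal anti-mouse IL-4Ra antibody. The replicates are labelled as biological, and the labels do not state when mice were dosed or lungs collected.

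IL-4Ra is the receptor chain shared by IL-4 and IL-13, the cytokines that drive mucus production, alternative activation of macrophages and eosinophil recruitment in allergic airways. Both receptors signal through the transcription factor STAT6, and an antibody against IL-4Ra blocks both ligands. Msx3 encodes a homeobox transcription factor of the Msh family, known from the dorsal neural tube of the mouse embryo. Ddx4, also called Vasa, encodes a DEAD-box RNA helicase that marks germ cells and works in the piRNA pathway, which silences transposons. Ankrd55 encodes a protein with ankyrin repeats, and the human gene lies beside IL6ST in a region that genetic studies tied to autoimmune disease. Aqp9 encodes an aquaglyceroporin, a membrane channel for water, glycerol and other small solutes that is known from hepatocytes and from leukocytes.

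The start regions of the genes are shown first because Ddx4 and Il31ra differed alike between the 3 groups. Il31ra is a neighbour of Ddx4 that is described further on. The start regions of Msx3 and Aqp9 are set beside those of Ddx4 and Il31ra. Of the 4 genes, 3 had an entry in the table of RefSeq promoters (GRCm38.p6). The 250 bases before each transcription start were searched on both strands for 4 motifs. TTCNNNGAA is the palindrome bound by STAT factors, and its wider form, with 4 bases between TTC and GAA, is the spacing that STAT6 favours. TGANTCA is the core of AP-1 sites, and CCAAT is a common element of promoters. All of the sequences below lie on the minus strand, run 5′ to 3′ towards the transcription start, and have motif matches in capitals. No match overlapped another.
Msx3, chr7:140049089-140049338: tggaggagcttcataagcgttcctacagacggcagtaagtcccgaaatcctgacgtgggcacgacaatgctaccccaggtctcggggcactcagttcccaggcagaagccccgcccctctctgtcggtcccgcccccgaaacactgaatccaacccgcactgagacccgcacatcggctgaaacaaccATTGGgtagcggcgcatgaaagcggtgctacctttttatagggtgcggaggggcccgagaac
Ddx4, chr13:112652311-112652560: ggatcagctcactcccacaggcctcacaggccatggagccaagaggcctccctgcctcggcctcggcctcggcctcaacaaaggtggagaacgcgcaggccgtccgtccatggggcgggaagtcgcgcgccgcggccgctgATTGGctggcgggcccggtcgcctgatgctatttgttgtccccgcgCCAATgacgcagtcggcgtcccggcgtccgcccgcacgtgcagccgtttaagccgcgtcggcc
Il31ra, chr13:112580663-112580912: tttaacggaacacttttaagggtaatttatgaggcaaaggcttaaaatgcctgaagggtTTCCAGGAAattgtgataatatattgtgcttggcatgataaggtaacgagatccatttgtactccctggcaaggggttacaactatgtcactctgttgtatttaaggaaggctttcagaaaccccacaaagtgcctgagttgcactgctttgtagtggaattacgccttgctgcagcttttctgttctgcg
Aqp9, second listed start, chr9:71162634-71162883: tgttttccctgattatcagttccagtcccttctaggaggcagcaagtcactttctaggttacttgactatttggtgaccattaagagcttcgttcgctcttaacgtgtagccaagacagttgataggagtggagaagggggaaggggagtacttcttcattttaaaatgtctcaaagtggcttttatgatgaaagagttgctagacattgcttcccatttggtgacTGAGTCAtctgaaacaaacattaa

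Msx3 held CCAAT on the reverse strand, written ATTGG, from 62 to 58 bases before the start. Ddx4 held CCAAT from 63 to 59 bases before the start and ATTGG from 109 to 105 bases before it. CCAAT was present in 33.8% of the 32851 promoters in the table. The second start of Aqp9 held TGAGTCA, a match to TGANTCA, from 24 to 18 bases before it, and this motif was present in 6.75% of all promoters. In the window before the first listed start of Aqp9, which is not shown, these letters were not found. Il31ra held TTCCAGGAA, a match to TTCNNNGAA, from 191 to 183 bases before the start, and 7.02% of all promoters held that motif. The wider form, present in 5.85% of all promoters, was not in any of these windows. The G and C content of the windows was 70.4% for Ddx4 and 60.0% for Msx3, against a median of 52.4% over all promoters. It was 42.0% for Il31ra and 40.4 and 41.6% for the starts of Aqp9. A match to a motif is a description of the letters and does not show that a factor binds there.

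The values are expected counts, the authors' estimate of reads per gene. Levels below are in CPM, counts scaled by the library total and a TMM factor, and a mean is given ± SD over the 5 libraries of a group. A log2 fold change is given ± SE, and an adjusted p is from edgeR's quasi-likelihood test with Benjamini-Hochberg adjustment over 15905 tested genes, called under 0.05. Total counts per library were 16774285 to 27570666 in the saline group, 10042825 to 14706131 in the OVA group and 12317805 to 16914475 in the anti-IL-4Ra group. At these depths 3 counts in a library correspond to 0.113 to 0.308 CPM, so single counts of Msx3 and Ddx4 lie near the limit of detection. Intervals given for counts cover counting error only. Markers of lung epithelium and endothelium (Scgb1a1, Sftpc, Sftpb, Ager, Foxj1, Cdh5 and Epcam) were abundant in each library and summed to 18870 to 35460 CPM in saline lungs, 6742 to 15780 CPM in OVA lungs and 8844 to 19950 CPM with anti-IL-4Ra. The share of counts on Rn45s, the ribosomal RNA precursor, was 1.19 to 2.88% in saline lungs, 4.31 to 12.4% in OVA lungs and 1.65 to 12.4% with anti-IL-4Ra. This share moved with challenge, and values from a fit that holds it as a covariate are given with the differences from saline.

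Msx3 was nearly silent in saline lungs and was read in every OVA lung. Its counts in replicates 1 to 5 were 1, 2, 0, 0 and 0 with saline. They were 34, 29, 41, 54 and 36 with OVA. With anti-IL-4Ra they were 2, 5, 3, 5 and 0. The OVA libraries lay apart from both other groups, and the anti-IL-4Ra libraries reached down to the level of saline, where 3 libraries held no read. In CPM the levels were 0.0230 ± 0.0345 in saline lungs, 3.03 ± 0.623 in OVA lungs and 0.209 ± 0.142 with anti-IL-4Ra. With 194 counts against 3, the depth-corrected ratio of OVA to saline was 107, with an exact 95% interval of 36.2 to 524.6.

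Ddx4 was read at a few counts in every library and was higher in OVA lungs. The counts in replicates 1 to 5 were 5, 9, 4, 5 and 3 with saline. With OVA they were 15, 23, 12, 20 and 22. With anti-IL-4Ra they were 3, 2, 3, 1 and 3. The lowest OVA library, replicate 3 at 0.811 CPM, was above the highest saline library at 0.349 CPM, while the anti-IL-4Ra and saline libraries overlapped. The mean level was 0.239 ± 0.0711 CPM in saline lungs, 1.50 ± 0.583 CPM in OVA lungs and 0.165 ± 0.0678 CPM with anti-IL-4Ra. This was the gene of the 4 whose mean after the antibody lay below the mean of saline.

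Ankrd55 was measured well above the limit of detection in all 15 libraries. Its counts in replicates 1 to 5 were 73, 110, 33, 42 and 28 with saline. With OVA they were 118, 144, 156, 244 and 126. With anti-IL-4Ra they were 28, 23, 59, 68 and 52. The highest raw count of the saline group came near the lowest of the OVA group, and the saline libraries were the deeper ones. After scaling for depth the lowest OVA library, at 8.94 CPM, was above the highest saline library, at 4.26 CPM, and above the highest anti-IL-4Ra library, at 4.58 CPM. The means were 2.54 ± 1.06 CPM in saline lungs, 12.2 ± 2.92 CPM in OVA lungs and 3.07 ± 1.204 CPM with anti-IL-4Ra.

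Aqp9 was likewise measured in all libraries, and its level varied most within the OVA group. Counts in replicates 1 to 5 were 46, 35, 37, 25 and 30 with saline. They were 100, 73, 79, 132 and 150 with OVA. They were 44, 43, 42, 34 and 25 with anti-IL-4Ra. OVA replicate 5, at 15.4 CPM, stood above the other OVA libraries, which lay between 5.34 and 9.03 CPM. Even the lowest OVA library was above the highest of both other groups, at 1.87 CPM with saline and 3.64 CPM with anti-IL-4Ra. The means were 1.63 ± 0.252 CPM in saline lungs, 8.67 ± 4.01 CPM in OVA lungs and 2.62 ± 0.826 CPM with anti-IL-4Ra. Without OVA replicate 5 the OVA mean was 6.99 ± 1.65 CPM (n = 4).

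**Figure D1:**
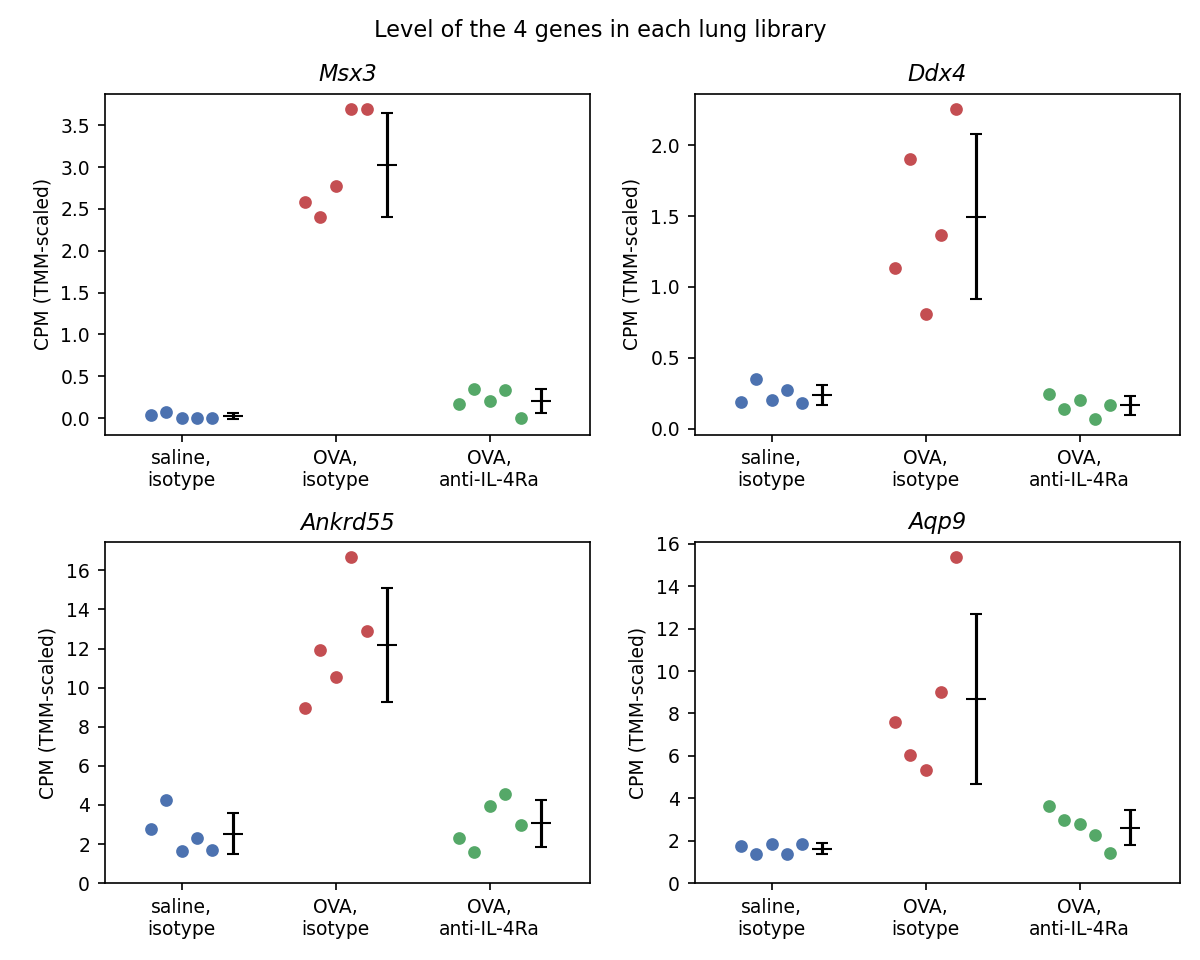
Level of Msx3, Ddx4, Ankrd55 and Aqp9 in CPM scaled by TMM factors (y axis, linear, a separate scale for each gene) in the 5 saline, 5 OVA and 5 anti-IL-4Ra libraries (x axis, replicates 1 to 5 from left to right). Points are libraries and bars are the group mean ± SD; in each panel the 5 OVA libraries lie above the other 10.

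The comparison of OVA with saline asks what sensitisation and challenge change in the lung. It shares the OVA libraries with the contrast by which the genes were chosen, so high OVA values enter both. Ankrd55 rose by 2.25 ± 0.31 on the log2 scale (adjusted p = 0.000107) and Aqp9 by 2.40 ± 0.30 (adjusted p = 6.0e-05), both by edgeR. Msx3 and Ddx4 entered the fit only through the OVA group, in which all 5 libraries passed the 0.667 CPM that the filter on low counts asked for and none did in the other groups. They had to differ for that reason, and their values are a description with no p. Ddx4 differed by 2.58 ± 0.34 and Msx3 by 6.43 ± 0.59, a fitted value that depends on the prior count because saline held so few reads. The background of this comparison was high, since 37.1% of the tested genes were called, with 19.3% of the tested genes called higher. In 12.1% of the tested genes the 5 OVA libraries lay above the 5 saline libraries without overlap, as they did for the 4 genes. With the Rn45s share as a covariate the changes were 5.93, 2.18, 2.00 and 1.77 for Msx3, Ddx4, Ankrd55 and Aqp9, with adjusted p of 0.0171 for Ankrd55 and 0.0198 for Aqp9, while the number of called genes dropped from 5898 to 752. Without OVA replicate 5 the change of Aqp9 was 2.099 ± 0.255 (adjusted p = 0.000101).

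The comparison of anti-IL-4Ra with OVA, which asks what receptor blockade changes in challenged lungs, chose the genes, and its values are given as a description with no test. Msx3 was lower by a log2 difference of -3.83 ± 0.48, from 194 counts to 15. Ddx4 differed by -3.12 ± 0.38, Ankrd55 by -1.98 ± 0.31 and Aqp9 by -1.73 ± 0.30. Ordered by size, they ranked 4, 6, 15 and 20 of the 26 genes called lower, which begin with the eosinophil-associated ribonuclease Rnase2a (-5.75), the arginase Arg1 (-4.32) and the eosinophil chemoattractant Ccl24 (-3.95). The place of the 4 among the lower genes follows from how they were chosen and is no result. Aqp9 was not among the called genes with the replicate number as a block (-1.67) or in a fit of these 2 groups alone (-1.73). Few genes differed in this comparison: 0.302% of those tested were called, 0.163% lower and 0.138% higher, and in 0.66% the anti-IL-4Ra libraries lay below the OVA libraries without overlap. At the edge of the called list stood H2-M2 (-1.49, adjusted p = 0.0409) just inside and Mmp19 (-1.06, adjusted p = 0.0558) just outside.

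The fraction of the OVA rise that was left after the antibody was computed in each anti-IL-4Ra library as its distance from the saline mean over that of the OVA mean. It was 6.20 ± 4.72% for Msx3 and 5.55 ± 12.5% for Ankrd55. For Ddx4 it was -5.92 ± 5.40%, where a negative value means a level below the saline mean. Aqp9 kept 14.1 ± 11.7%, with single libraries from -2.98 to 28.5%. These ranges overlapped among the 4 genes. The SD leaves out the error of the saline and OVA means, and choosing genes for a fall with the antibody lowers the fraction.

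The comparison of anti-IL-4Ra with saline asks how far blocked lungs still differ from unchallenged ones, and it shares the anti-IL-4Ra libraries with the contrast that chose the genes. Msx3 and Ddx4 entered the fit only through the OVA group, which is not part of this comparison. In a fit of these 2 groups alone they did not pass the filter, so their values here rest on few reads. Msx3 was called higher in the fit of all 15 libraries, by 2.60 ± 0.76 (adjusted p = 0.0208). It had 15 counts against 3 and a depth-corrected ratio of 7.21 (exact 95% interval 2.04 to 38.9). In 4 of 5 anti-IL-4Ra libraries it lay above the highest saline library. That call was lost with the replicate number as a block (2.58, adjusted p = 0.0551), with the Rn45s covariate (2.11, adjusted p = 0.241) and without anti-IL-4Ra replicate 4 (2.33, adjusted p = 0.05). Ddx4 (-0.55 ± 0.43, adjusted p = 0.374), Ankrd55 (0.27 ± 0.31, adjusted p = 0.543) and Aqp9 (0.68 ± 0.30, adjusted p = 0.107) did not pass the threshold, which does not show that they had returned to the saline level. Without anti-IL-4Ra replicate 5, the library with the lowest Aqp9 value of that group, Aqp9 was 0.84 higher than in saline (adjusted p = 0.0427). In this comparison 26.6% of the tested genes were called, 13.9% higher and 12.7% lower. For each of the 4 genes the order of mean levels thus put OVA on top, and the neighbours in that order, anti-IL-4Ra and saline, had libraries that overlapped, also for Msx3.

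Ddx4 and Ankrd55 lie close together on chromosome 13. In the RefSeq order of genes (GRCm38.p6) Ankrd55 is followed by Il6st, Il31ra and Ddx4, so that the pair is 3 genes apart, with Ankrd55 and Il6st on the plus strand and Il31ra and Ddx4 on the minus strand. Il6st encodes gp130, the signalling chain of the IL-6 receptor family, and Il31ra encodes the related receptor chain for IL-31, a cytokine of itch and type 2 inflammation. Il31ra followed the pattern of its neighbour Ddx4 between the groups. Its counts in replicates 1 to 5 were 5, 11, 7, 16 and 10 with saline. With OVA they were 36, 42, 32, 58 and 50. With anti-IL-4Ra they were 4, 6, 6, 8 and 11. The OVA libraries again did not overlap the others, and anti-IL-4Ra overlapped saline, at 0.461 ± 0.118 against 0.490 ± 0.262 CPM. Over all tested genes, OVA lay above saline without overlap in 12.1%, and anti-IL-4Ra lay below OVA without overlap in 0.66%. Il31ra rose by 2.84 ± 0.35 with OVA and fell by 2.88 ± 0.36 with the antibody, given as a description with no p. Its OVA libraries, from 2.16 CPM, all passed the 0.667 CPM of the filter, and its highest anti-IL-4Ra library was at 0.625 CPM. Saline libraries lay between 0.188 and 0.871 CPM. The gene thus entered the fit through the OVA group. It was named with earlier results of these data known, so its likeness to Ddx4 is no independent support.

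Il6st, which lies between Ankrd55 and Il31ra, did not share the pattern. It was measured at 584 ± 93.5 CPM in saline lungs, 386 ± 69.1 CPM in OVA lungs and 382 ± 50.1 CPM with anti-IL-4Ra. It fell by 0.60 ± 0.15 with OVA (log2, adjusted p = 0.0059), and the difference between anti-IL-4Ra and OVA was -0.01 ± 0.15 (adjusted p = 0.9997). On the far side of Ddx4, the amino acid transporter gene Slc38a9 rose by 0.45 ± 0.11 with OVA (adjusted p = 0.00516) and differed by -0.21 ± 0.11 with the antibody (adjusted p = 0.9997). On the far side of Ankrd55, the kinase gene Map3k1 differed by 0.26 ± 0.18 (adjusted p = 0.266) and 0.12 ± 0.18 (adjusted p = 0.9997). The phosphatase gene Ppap2a, now named Plpp1, fell by 1.21 ± 0.22 with OVA (adjusted p = 0.000872). Of the 12 listed genes of this stretch, 11 were tested, and 3 were called higher and 4 lower with OVA. Over all tested genes 19.3% were called higher and 17.8% lower. The median log2 change was 0.06 beside 0.02 over all tested genes. With the antibody edgeR called Il31ra lower and no gene of the list higher, beside 0.163 and 0.138% of all tested genes. No gene was higher at an unadjusted p under 0.05, and DESeq2 and limma voom called Il31ra alone. As Il31ra entered the fit through the OVA group, its call is no independent result.

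**Figure D2:**
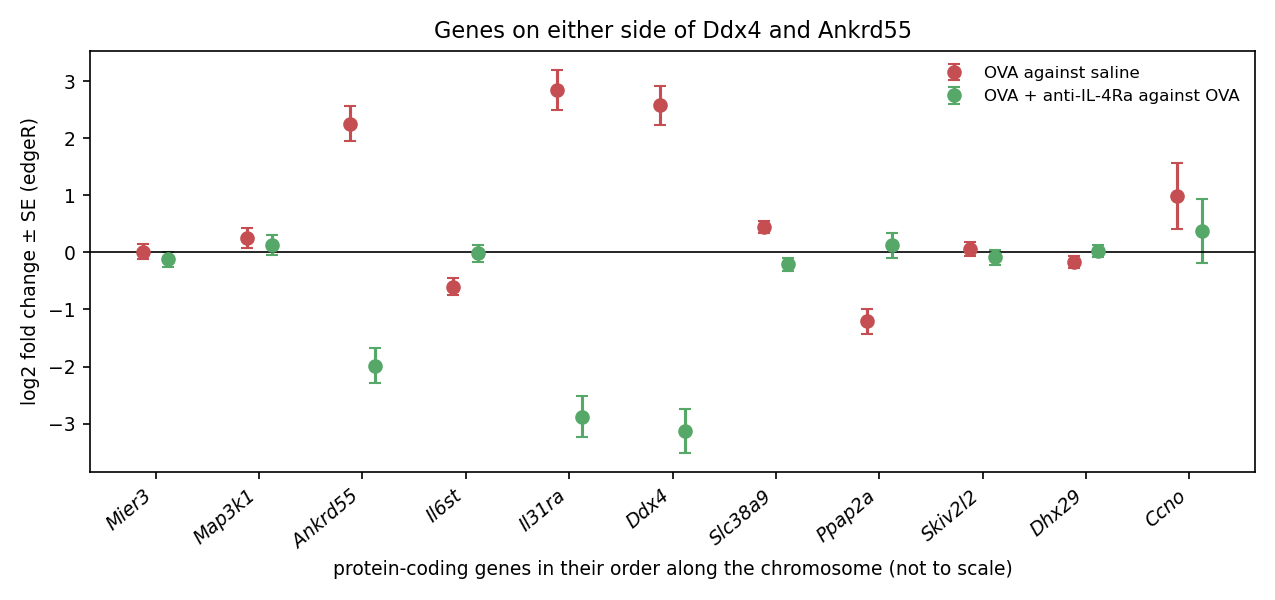
Log2 fold change ± SE from edgeR (y axis) of the protein-coding genes around Ddx4 and Ankrd55 in their order along the chromosome (x axis, not to scale), for OVA against saline and for anti-IL-4Ra with OVA against OVA. Ankrd55, Il31ra and Ddx4 have positive values between 2.25 and 2.84 with OVA and negative values with the antibody, while Il6st between them lies at -0.60 and -0.01.

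Msx3 lies on chromosome 7 beside Zfp511 and Caly, and Aqp9 on chromosome 9 beside Lipc and Aldh1a2. Near Msx3, Adam8, a metalloprotease gene of leukocytes, rose by 2.46 ± 0.23 with OVA (adjusted p = 9.2e-06) and differed by -0.99 ± 0.22 with the antibody (adjusted p = 0.0774). Zfp511 differed by -0.07 ± 0.18 with OVA (adjusted p = 0.793), and Caly and Prap1 had no more than 9 counts per group. Next to Aqp9, the hepatic lipase gene Lipc rose by 2.99 ± 0.65 with OVA (adjusted p = 0.0025) and differed by -0.65 ± 0.58 with the antibody (adjusted p = 0.9997). Aldh1a2, a retinoic acid synthase, differed by -0.24 ± 0.28 with OVA (adjusted p = 0.522). Over the neighbours of all 4 genes, the 5 on each side, 28 of 32 other genes were tested. With OVA 9 were called higher and 8 lower, beside 19.3 and 17.8% of all tested genes. With the antibody 1 was called lower, Il31ra, and 0 were called higher, beside 0.163 and 0.138% of all tested genes. An unadjusted p under 0.05 was found in 0 higher and 2 lower, while DESeq2 called 2, Adam8 and Il31ra, and limma voom 1. Il31ra had entered the fit through the OVA group. In the GENCODE M21 annotation no other gene overlaps Msx3 or Ddx4. Ankrd55 is overlapped by the antisense gene Gm48837 and, on its own strand, by the small nuclear RNA gene Gm22768, and Aqp9 by the antisense gene Gm32511 and the pseudogene Gm47268, and Il31ra by the pseudogene Gm3226 on its own strand. No source used here gives the strand setting of the counting, so reads of Ankrd55 or Aqp9 and of their antisense partners cannot be told apart.

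The relatives of each gene were counted beside their member. With the antibody edgeR called 0.302% of all tested genes, and of the 15905 DESeq2 called 128 and limma voom 51. At these shares a short list holds 0 or few called genes, so such a count is no result about a family. The share of all tested genes with an unadjusted p under 0.05 is not given here. Of the Msx and Dlx homeobox genes, 1 of 8 passed the filter. This was Msx1, at 2.51 CPM with saline, which differed by -0.58 ± 0.29 with OVA (adjusted p = 0.13) and by -0.21 ± 0.30 with the antibody (adjusted p = 0.9997). Msx2 had 7.93, 19.27 and 20.32 counts over the saline, OVA and anti-IL-4Ra groups, and Dlx6 had none. Of 6 markers of the neural tube, the known site of Msx3, none passed the filter. They summed to 0 to 0.353 CPM in saline lungs, 0.414 to 0.993 CPM in OVA lungs and 0.170 to 0.364 CPM with anti-IL-4Ra, of which Pax6 gave 10, 21 and 7 counts per group and Sox1 gave 5, 11 and 3.29. Their summed level was thus highest in OVA lungs too, at a few reads per library, and its part in the Msx3 result was not tested.

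Of 29 germ cell and piRNA pathway genes, 12 were tested, and 2 were called higher, beside 19.3% of all tested genes, and 1 lower with OVA, with a median log2 change of -0.18 beside 0.02 over all tested genes. Piwil2, a PIWI protein that binds piRNAs, rose by 1.46 ± 0.39 (adjusted p = 0.00875), from 59 to 105 counts over the groups, and gave 123 counts with the antibody. Sycp1, of the synaptonemal complex of meiosis, rose by 0.84 ± 0.29 (adjusted p = 0.0323), and the tudor domain gene Tdrd7 fell by 0.56 ± 0.11 (adjusted p = 0.00161). With the antibody edgeR called 0 of the 12, beside 0.302% of all tested genes. An unadjusted p under 0.05 was found in 1 higher and 1 lower, and DESeq2 and limma voom called 0. Piwil2 differed there by 0.04 ± 0.37 (adjusted p = 0.9997). None of 6 markers of germ cells passed the filter. The defining Dazl gave 4, 1 and 1 counts over the saline, OVA and anti-IL-4Ra groups and Mael gave 1, 0 and 0. All 6 summed to 0.611 to 1.88 CPM in saline lungs, 0.513 to 2.73 CPM in OVA lungs and 0.666 to 1.38 CPM with anti-IL-4Ra. Sycp3 gave 86.06, 45.04 and 31 counts over those groups, or mean levels of 0.735, 0.659 and 0.406 CPM. Among 35 other DEAD-box helicase genes, 9 were called higher and 0 lower with OVA, beside 19.3 and 17.8% of all tested genes. At an unadjusted p under 0.05 it was 12 and 1, while DESeq2 called 11 and limma voom 8. The median log2 change was 0.10. Ddx17, one of the most abundant, rose by 0.45 ± 0.15 (adjusted p = 0.0291), and Ddx5 differed by 0.33 ± 0.15 (adjusted p = 0.0877). With the antibody edgeR called 0 of the 35, beside 0.302% of all tested genes. An unadjusted p under 0.05 was found in 2 higher and 0 lower, and DESeq2 and limma voom called 0.

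Among 35 tested genes named for ankyrin repeat domains other than Ankrd55, 7 were called higher and 5 lower with OVA. The shares over all tested genes were 19.3 and 17.8%, and the median log2 change of the 35 was 0.14. The most abundant, Ankrd11 at 279 CPM with saline, differed by 0.06 ± 0.14 (adjusted p = 0.753), and Ankrd44 fell by 0.41 ± 0.11 (adjusted p = 0.00734). With the antibody edgeR called 0 of the 35, beside 0.302% of all tested genes. An unadjusted p under 0.05 was found in 0 higher and 2 lower, and DESeq2 and limma voom called 0.

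Of 11 other aquaporins, 6 were tested, and with OVA 1 was called higher and 2 lower, beside 19.3 and 17.8% of all tested genes. Aqp1, the water channel of endothelium, fell by 1.52 ± 0.26 (adjusted p = 0.000547), and Aqp5, that of alveolar type 1 cells, fell by 1.56 ± 0.27 (adjusted p = 0.000627). Aqp3, which like Aqp9 passes glycerol, rose by 2.11 ± 0.49 (adjusted p = 0.00372), from 0.908 to 4.05 CPM. With the antibody Aqp3 was at 3.93 CPM, a log2 difference from OVA of -0.06 ± 0.46 (adjusted p = 0.9997), and it was still called higher than saline, by 2.05 (adjusted p = 0.00724). Aqp7, the other glycerol channel tested, differed by 0.42 ± 0.53 with OVA (adjusted p = 0.554). No aquaporin of the list was called with the antibody by edgeR, beside 0.302% of all tested genes. None had an unadjusted p under 0.05, and DESeq2 and limma voom called 0 of them. Of 9 genes of glycerol and monocarboxylate handling, the lactate carrier Slc16a1 rose by 0.62 ± 0.18 (adjusted p = 0.0142), and the lipase genes Pnpla2 (-1.07 ± 0.35, adjusted p = 0.0254) and Mgll (-0.96 ± 0.23, adjusted p = 0.00518) were called lower with OVA. None of the 9 was called with the antibody by edgeR, beside the same 0.302% of all tested genes. None had an unadjusted p under 0.05, and DESeq2 and limma voom called 0.

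For scale, 14 classical type 2 genes were set beside the 4. All 14 were called higher with OVA, beside 19.3% of all tested genes, with a median log2 change of 5.49. With the antibody 4 were called lower and 0 higher, beside 0.163 and 0.138% of all tested genes. The median of the 14 was -1.49 beside -0.00206 over all tested genes. An unadjusted p under 0.05 was found in 0 higher and 8 lower, and DESeq2 called 5 and limma voom 5. Arg1 fell by 4.32 ± 0.38 (adjusted p = 6.8e-05), Ccl24 by 3.95 ± 0.43 (adjusted p = 0.000448), the lectin Mgl2 by 2.19 ± 0.27 (adjusted p = 0.000942) and the PD-1 ligand gene Pdcd1lg2 by 1.79 ± 0.25 (adjusted p = 0.00175). The mucus gene Clca3, now named Clca1, differed by -0.77 ± 0.79 and the resistin-like gene Retnla by -0.47 ± 0.47 (both adjusted p = 0.9997).

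The genes whose levels were most like each of the 4 were found by Pearson's r of log2 CPM over the 15 libraries among 15904 other tested genes. The r values are descriptions: all libraries share the same 3 groups, so r holds the differences between groups together with the spread within them. Msx3 was most like Rnase2a (r = 0.984), Arg1 (0.977), the eotaxin Ccl11 (0.957), 9530059O14Rik (0.946) and Ptgdr, a prostaglandin D2 receptor (0.943). Ddx4 was most like Oit3 (0.933), then Il31ra (0.925), Mgl2 (0.878), Arg1 (0.869) and Ccl24 (0.868). Of 15904 genes, Ankrd55 came 6th in likeness to Ddx4, at r = 0.867. High r values between the 4 genes follow from how they were chosen, by the same contrast, and are no support for a shared pattern. Il6st, which that contrast did not choose, had r = -0.36 with Ddx4 and -0.39 with Ankrd55. Ankrd55 was most like Msx3 (0.908), the WD repeat gene Wdr27 (0.884), Arg1 (0.884), Ksr2, a scaffold of Ras signalling (0.884) and Il31ra (0.877). Aqp9 was most like Epx (0.952), Cebpe (0.946), 9530059O14Rik (0.942), Msx3 (0.939) and Il1rl1, the receptor for IL-33 (0.929). By Spearman's rank correlation in place of Pearson's, 1 of the 5 genes was shared for Msx3, Ddx4 and Ankrd55 and 3 for Aqp9. Il31ra then came 54th for Ddx4 (rho = 0.664) and 90th for Ankrd55 (rho = 0.725).

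**Figure D3:**
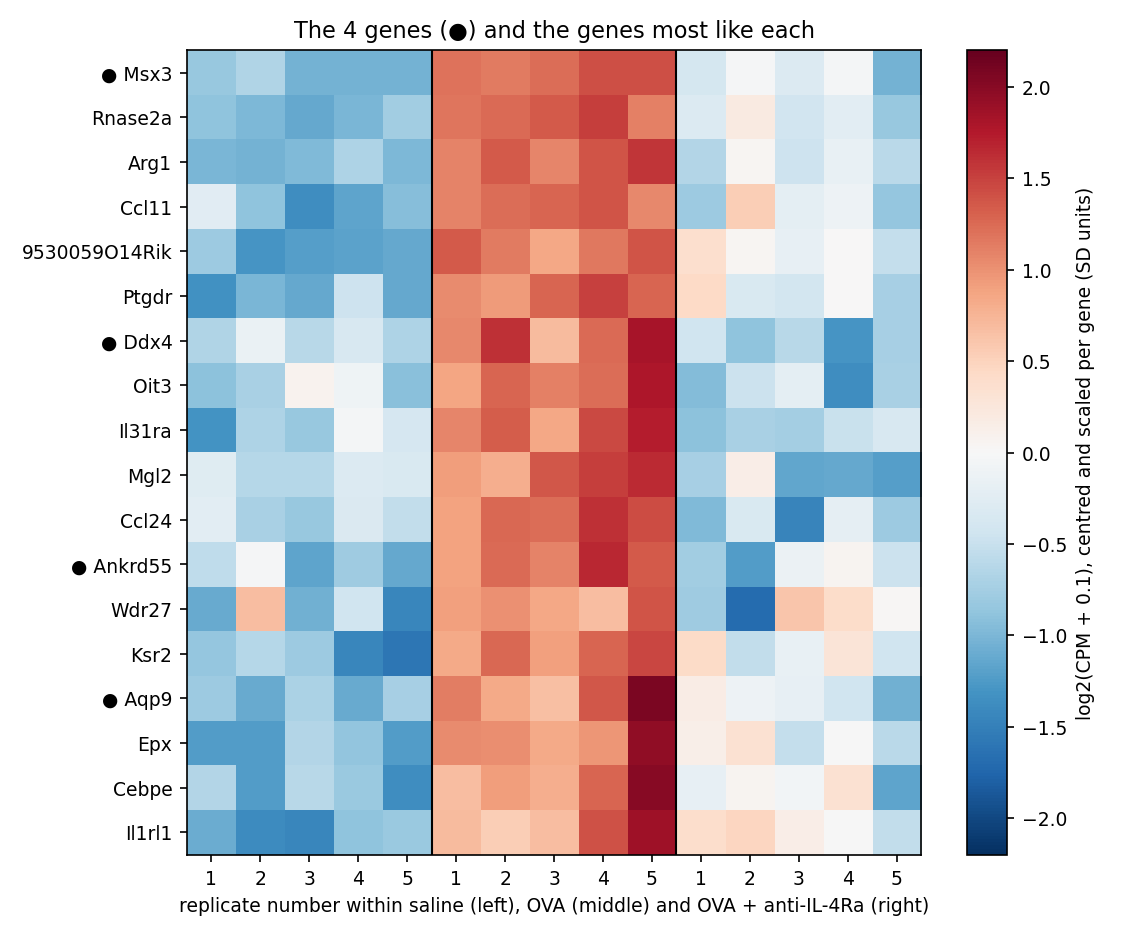
Log2(CPM + 0.1) of the 4 genes (marked with a dot) and of the genes most like each, centred and scaled per gene in SD units (colour), in the 15 libraries (x axis, replicates 1 to 5 of saline, OVA and anti-IL-4Ra from left to right). The 4 genes are highest in the 5 OVA libraries, the genes below each largely follow, with Wdr27 in saline replicate 2 close to the lowest OVA library, and Aqp9, Epx and Cebpe are darkest in OVA replicate 5.

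Epx, the peroxidase of eosinophil granules, and Cebpe, a transcription factor of maturing granulocytes, shared with Aqp9 a high value in OVA replicate 5. They were named for being most like Aqp9 over the 15 libraries, so a shared high library follows from that choice. OVA replicate 5 had the fewest counts of all libraries, 10042825, and the highest Rn45s share of the OVA group, 12.4%. Its summed lung epithelial and endothelial markers were the lowest, at 6742 CPM. Epx was at 0.0311 ± 0.0456 CPM in saline lungs, 1.95 ± 1.44 CPM in OVA lungs and 0.309 ± 0.187 CPM with anti-IL-4Ra, with 4.51 CPM in OVA replicate 5. Cebpe was at 0.248 ± 0.105, 2.54 ± 1.57 and 0.636 ± 0.306 CPM, with 5.23 CPM in that library. Prg2, the eosinophil major basic protein, was at 0.184 ± 0.119, 7.995 ± 7.72 and 2.21 ± 1.58 CPM, with 21.6 CPM in that library. Ccr3, the eotaxin receptor, was instead highest in OVA replicate 4, at 11.2 CPM, with 8.72 CPM in replicate 5. Of 5 eosinophil markers (Epx, Prg2, Ccr3, Il5ra and Siglec5), 4 were called higher and 1, Siglec5, lower with OVA. Over all tested genes the shares called higher and lower were 19.3 and 17.8%. With the antibody edgeR called 0 of 5, beside 0.302% of all tested genes. An unadjusted p under 0.05 was found in 1 higher and 2 lower, and DESeq2 called 1 and limma voom 0. Epx entered the fit through the OVA group, as no library of the other groups reached 0.667 CPM. It differed by -2.63 ± 0.55 with the antibody. There Prg2 differed by -1.84 and Ccr3 by -0.74, while Il5ra, the IL-5 receptor chain, differed by -0.08 and Siglec5 by 0.50. Siglec5 had fallen by 0.76 ± 0.19 with OVA (adjusted p = 0.00516). The 5 summed to 14.9 to 20.6 CPM in saline lungs, 28.2 to 63.5 CPM in OVA lungs and 23.5 to 45.2 CPM with anti-IL-4Ra. Of the 5 markers, 4 moved with Aqp9 between saline and OVA and Siglec5 moved the other way, and their part in the Aqp9 result was not tested. In bulk RNA, fewer cells of a type and less RNA per cell cannot be told apart.

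**Figure D4:**
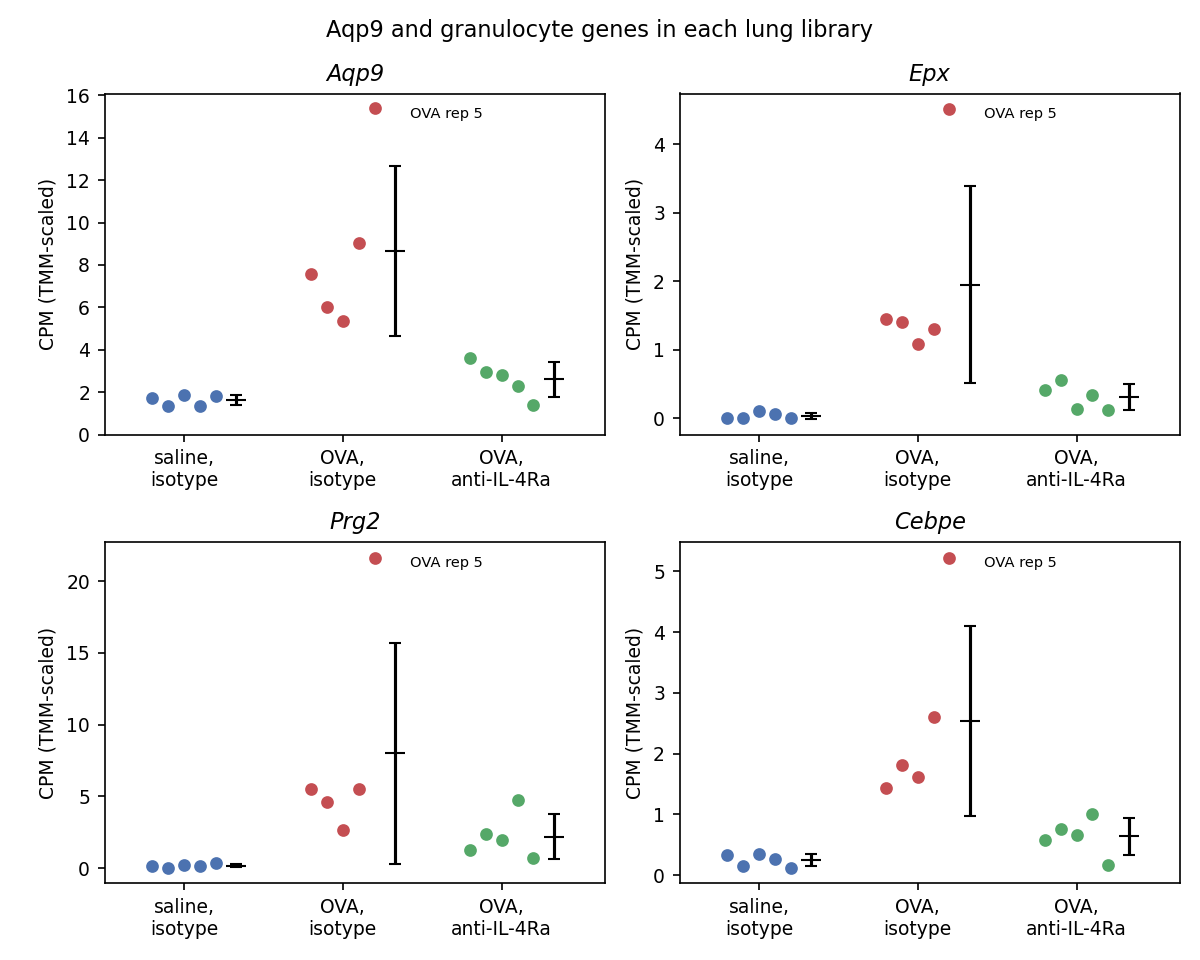
Level of Aqp9, Epx, Prg2 and Cebpe in CPM scaled by TMM factors (y axis, linear, a separate scale for each gene) in the saline, OVA and anti-IL-4Ra libraries (x axis). Points are the 5 libraries of a group and bars the mean ± SD. OVA replicate 5, labelled, is the highest library in each panel, at 15.4 CPM for Aqp9 and 4.51 CPM for Epx. That library had the fewest counts of all and an Rn45s share of 12.4%. Of the eosinophil markers not shown, Ccr3 was highest in OVA replicate 4 and Siglec5 was lower with OVA. Between anti-IL-4Ra and OVA the log2 difference was -0.74 for Ccr3, -0.08 for Il5ra and 0.50 for Siglec5.

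Markers of other cells in which Aqp9 is known were read as well. The 8 neutrophil markers summed to 169 to 368 CPM in saline lungs, 176 to 230 CPM in OVA lungs and 184 to 355 CPM with anti-IL-4Ra. With OVA 1 was called higher, Retnlg (3.28 ± 0.43, adjusted p = 7.7e-05), and 4 lower, among them S100a9 (-1.74 ± 0.44, adjusted p = 0.0061). The shares of all tested genes were 19.3% higher and 17.8% lower. With the antibody edgeR called 0 of 8, beside 0.302% of all tested genes, at a median log2 difference of 0.83. An unadjusted p under 0.05 was found in 3 higher and 1 lower, and DESeq2 and limma voom called 0. Of 6 hepatocyte markers, the defining Alb gave 60, 2 and 13 counts over the saline, OVA and anti-IL-4Ra groups and Cyp3a11 gave 0 in all libraries. Apob, the apolipoprotein of liver and gut, nevertheless rose by 2.22 ± 0.26 with OVA (adjusted p = 3.6e-05) and fell by 1.32 ± 0.25 with the antibody (adjusted p = 0.0303). The hepatocyte list summed to 7.12 to 9.71 CPM in saline lungs, 24.8 to 31.6 CPM in OVA lungs and 10.8 to 26.3 CPM with anti-IL-4Ra, nearly all from Apob and Serpina1a.

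Of the lists for other immune cells, none had a marker called with the antibody by edgeR, where 0.302% of all tested genes were called. With OVA, 19.3% of all tested genes were called higher and 17.8% lower. For 8 macrophage and monocyte markers, 2 were called with OVA, both higher, and with the antibody 2 higher and 1 lower had an unadjusted p under 0.05 and DESeq2 called 1. They summed to 377 to 509 CPM in saline lungs, 447 to 634 CPM in OVA lungs and 452 to 612 CPM with anti-IL-4Ra. For 6 alveolar macrophage markers, 1 was called higher, Itgax (2.05 ± 0.17, adjusted p = 3.1e-06), and 2 lower with OVA, and with the antibody 1 higher and 2 lower had an unadjusted p under 0.05 and DESeq2 called 2. Of 6 dendritic cell markers 2 were called higher, and of 6 T cell markers 5 were called higher with OVA, among them Cd4 (1.84 ± 0.33, adjusted p = 0.00075). T cell markers summed to a median of 38.5 CPM in saline lungs, 94.5 CPM in OVA lungs and 132 CPM with the antibody. The same number, 5, were called higher than saline with the antibody, beside 13.9% of all tested genes. For dendritic and T cell markers, 0 had an unadjusted p under 0.05 with the antibody and DESeq2 called 0. limma voom called 0 in each of these lists.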

How the data were processed

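RNA from 15 lungs was sequenced by the authors, who deposited expected counts per gene symbol, 1 column per library, as raw values. Bowtie2 2.1.0 and RSEM 1.2.15 were used per the submitters' processing notes, which name the build hg38, although 22542 of the 24054 symbols are current mouse symbols and 1372 more are mouse synonyms. No source used here gives the annotation or strand setting of the counting. Per the labels' protocols, both ribosomal RNA depletion and oligo-dT purification were used, with dUTP for strand-specific libraries. RSEM divides reads that fit several genes by an estimate; all 60 values of the 4 genes were whole within 0.005.

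Expected counts were rounded, filtered with filterByExpr (15905 of 24054 genes kept) and fitted with TMM factors and edgeR 4.0.16 (R 4.3.3) quasi-likelihood tests in 1 model of all 15 libraries; SE came from the F statistic. Tests were two-sided with Benjamini-Hochberg adjustment over all tested genes. The pipeline was tested on simulated data. Ratios of counts have exact (Clopper-Pearson) 95% intervals. DESeq2 1.42.0, limma 3.58.1 voom, other scalings and filters, a replicate block, an Rn45s covariate, fits of 2 groups and leaving out each library were the alternatives. The labels call the replicates biological, and within-group pairs of libraries differed by more than sampling noise (chi-square per degree of freedom 10 to 220), so none was counted as a duplicate deposit. Depth per library is given with the results. Besides the 4 genes, named genes are the 5 most like each by Pearson's r (prior count 2), the 5 protein-coding neighbours on each side, and from each list the genes called with the antibody or, with none, the most abundant; further genes named beside them, such as those called with OVA, were chosen after their values were seen. The 4 genes and the lists were chosen with earlier results of these data known.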

Additional observations from a re-analysis of the deposited data

Results flagged for a closer look

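No library of the 4 genes, Il31ra or Il6st stood apart from its group by Dixon's criterion (critical value 0.71 for 5 libraries). Among 72 gene and group combinations, which add the genes most like the 4 and a few marker or neighbouring genes, 9 did. Chance gives about 1 in 20 for independent, normally distributed values. Here linear CPM were used, and the added genes were chosen in part for likeness to the 4. The 9 are thus a description and no measure of an excess. In OVA replicate 5, the library with the highest Aqp9 value, Epx was at 4.51 CPM against 1.08 to 1.44 CPM in the other OVA libraries, and Prg2 was at 21.6 CPM against 2.63 to 5.54 CPM. In saline lungs, Adam8 reached 21.3 CPM in replicate 2 against 11.96 to 14.1 CPM, Ccl11 4.18 CPM in replicate 1 against 0.858 to 1.74 CPM, and in replicate 4 Arg1 reached 3.65 CPM against 1.86 to 2.12 CPM and Ptgdr 0.381 CPM against 0.0753 to 0.155 CPM. With anti-IL-4Ra, replicate 2 held Mgl2 at 22.3 CPM against 7.89 to 11.4 CPM and Rnase2a at 4.82 CPM against 0.227 to 1.55 CPM, and replicate 4 held Lipc at 5.72 CPM against 0.625 to 1.93 CPM. In each case the library was the highest of its group.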

How the results depend on the processing

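Ankrd55 and Aqp9 were called higher with OVA than with saline under each alternative run, and no value of the 4 genes reversed, but the OVA libraries also chose the genes, so this is no independent support. Over the alternatives that kept all libraries, the log2 changes were 5.93 to 6.76 for Msx3, 2.18 to 2.60 for Ddx4, 2.00 to 2.27 for Ankrd55 and 1.77 to 2.42 for Aqp9. Leaving out each library in turn gave 6.19 to 7.20, 2.39 to 2.72, 2.07 to 2.48 and 2.099 to 2.51. For anti-IL-4Ra against saline the same gave 2.31 to 3.39 for Msx3, -0.73 to -0.38 for Ddx4, 0.06 to 0.51 for Ankrd55 and 0.51 to 0.84 for Aqp9; Msx3 lost its call without anti-IL-4Ra replicate 4 (2.33) and Aqp9 gained one without replicate 5 (0.84). Msx3 also lost it with the Rn45s covariate (2.11), and Msx3 and Ddx4 had no value in the fit of those 2 groups, where they did not pass the filter. Genes called numbered 5898 for OVA against saline (752 with the Rn45s covariate; 4776 to 6619 leaving out 1 library), 48 for anti-IL-4Ra against OVA (128 by DESeq2; 32 to 61) and 4236 for anti-IL-4Ra against saline (373 with the Rn45s covariate; 2844 to 4679). The causes were not tested. Replicate numbers did not pair the samples: deviations of same-numbered libraries correlated at r from -0.546 to 0.347. With the number as a replicate block, 26 genes were called for anti-IL-4Ra against OVA, and Msx3 against saline was 2.58 (adjusted p = 0.0551). At 26 or fewer counts over a group, depth limits what can be said of Msx3 and Ddx4 in saline and anti-IL-4Ra lungs.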
